A study of Pardosa pseudoannulata with 16 samples.

Results

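RNA from whole wolf spiders of the species Pardosa pseudoannulata was compared between the groups UM and Ck, with n = 4 libraries each. The comparison rests on the sequence clusters that reached at least 1 FPKM in at least 4 of these 8 libraries, which was the case for 30009 of the 136360 clusters in the table (22%). FPKM is a level per cluster, scaled by the authors to the length of its sequence and the depth of the library. A cluster is a sequence assembled from reads; gene names do not come with the clusters, so none is given a function here, and neither the label "whole spider" nor any cell type could be checked against marker genes.

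The study asked how urea affects the predation behaviour of this farmland spider. Its design text names soil with 0, 200 or 400 mg/kg urea over 30 days and adult spiders taken from rice fields. The labels name 4 groups, UM, UH, UL and Ck, and give all of them, Ck included, the same treatment label, so no concentration is assigned to a group. Ck is used as the control because the letters are a common short form for one; the labels do not spell the word out. Nothing in the labels says whether a library is 1 animal or a pool, or whether replicates were kept apart, so the p-values reflect how far these libraries differ within a group, which may be technical variation.

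Urea is a nitrogen fertiliser in rice fields, and in many animals it is a waste product of protein breakdown. Spiders excrete nitrogen mostly as guanine and related purines. RNA of a whole animal mixes gut, muscle, silk glands, venom glands, nervous system and gonads, and a cluster made in a single organ follows the size and state of that organ. Fewer cells of a type and less RNA per cell cannot be told apart in such samples.

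The UM libraries held an estimated 18.47, 18.94, 16.65 and 18.92 M (mega) fragments in replicates 1 to 4, and the Ck libraries 19.78, 20.91, 17.66 and 18.92 M. A single fragment on a cluster of 500 bases counted for 0.222 to 0.258 FPKM in UM libraries, against 0.207 to 0.242 FPKM in Ck libraries. The UM libraries resembled each other more than the Ck libraries did. Across the 30009 clusters, which are not independent replicates, the correlation of log2(FPKM + 1) ran from 0.877 to 0.940 between UM libraries and from 0.736 to 0.916 between Ck libraries. The lowest value in Ck was that of replicates 1 and 2. The standard deviation over replicates was larger in Ck than in UM for 18698 clusters (62.3%), with medians of 0.26 in UM and 0.30 in Ck on the log2 scale. None of 5 measures per library passed adjustment in exact permutation tests, run two-sided. With 4 libraries against 4 these cannot give a p below 0.0286. A measure that alone reaches that limit is adjusted to 0.143 over the 5 measures and cannot pass. That none passed therefore does not show that the groups were alike. Clusters above 0 averaged 81039 ± 2364 in UM and 87581 ± 8313 in Ck (SD, n = 4 each; exact permutation p = 0.286, adjusted over the 5 measures 0.357).

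Most clusters differed little between UM and Ck. The median log2 change, the difference of group means of log2(FPKM + 1) with UM minus Ck, was 0.06, and the quartiles were -0.13 and 0.26. The change was smaller than 0.5 in either direction in 81.5% of the clusters, and the median standard error of a change was 0.22. The largest differences lay mainly on the side of lower levels in UM. A change of at least 1 was seen upward in 947 and downward in 916 clusters, of at least 2 in 118 and 242, and of at least 4 in 2 and 81. These counts describe the size of the differences and are not tests.

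The limma test called 47 clusters at an adjusted p under 0.05, of which 22 rose and 25 fell in UM relative to Ck. That is 0.157% of those tested, with 0.0733% higher and 0.0833% lower in UM. In all 47, no UM value overlapped a Ck value, which the choice by this same contrast largely fixes. The falls reached further than the rises. The median log2 change of the rises was 1.62 with a range of 0.93 to 3.45, against a median of -1.84 among the falls, which ranged from -0.99 to -10.18. At an unadjusted p under 0.05 there were 3515 clusters (11.7%). Of the 47 calls, 16 rises and 14 falls were among the 108 and 148 clusters that met the 1 FPKM threshold in every library of that higher group and in none of the other, so that their place in the table already required a difference. For these calls, the p-values and the settings they held under are not separate support for a difference.

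**Figure D1:**
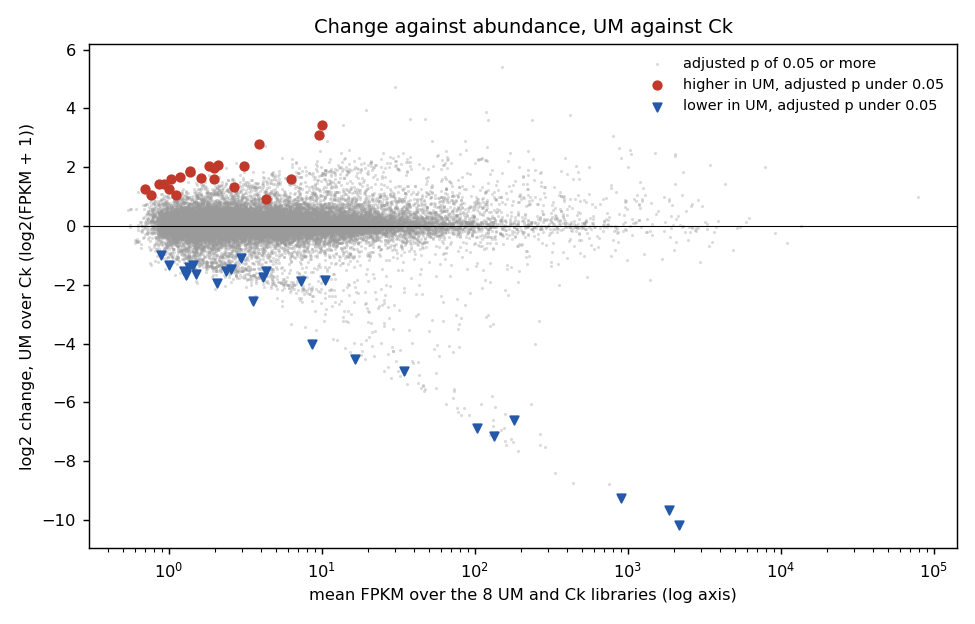
Each point is 1 of the 30009 clusters, with its mean FPKM over the 8 libraries on a log axis and its log2 change (UM over Ck, log2(FPKM + 1)) on the other axis. The 22 rises (red circles) lie at or below 3.45, while the 25 falls (blue triangles) reach -10.18 along a lower edge of clusters close to 0 in UM.

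The number of calls rested on single libraries and on how the spread was estimated. It was 15 without UM replicate 1, 31 without UM replicate 2, 27 without UM replicate 3 and 28 without UM replicate 4. With a single Ck library left out, it was 49 (replicate 1), 366 (replicate 2), 24 (replicate 3) and 80 (replicate 4). Fitting the 8 libraries on their own, in place of all 16, called 11 clusters (3 rises and 8 falls), 8 of them among the 47. In all, 15 of the 47 calls (9 rises and 6 falls) held with any 1 of the 8 libraries left out. Fewer held under the other alternatives. The fit of the 8 libraries kept 2 rises and 6 falls, and limma voom on estimated fragments kept 6 rises and 6 falls. Under every alternative setting apart from a stricter filter on the mean FPKM, 2 calls held (0 rises and 2 falls).

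Cluster-9253.41983 (3832 bases) had the second largest log2 change of the rises. It had 21.92, 20.17, 16.43 and 12.79 FPKM in UM, against 3.33, 0.62, 0.16 and 1.62 FPKM in Ck. Every UM library lay well above the highest Ck library. The log2 change was 3.10 ± 0.32 (SE; adjusted p = 0.00101), and the ratio of mean FPKM was 12.4. The call held with any of the 8 libraries left out, and was lost in the fit of the 8 libraries alone (adjusted p = 0.0651). UM exceeded UL in this cluster (log2 change 3.32, adjusted p = 0.000855; 0.42 to 1.26 FPKM in UL). Against UH, where it had 28.36 to 43.3 FPKM, the difference did not pass (log2 change -0.90, adjusted p = 0.126).

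Cluster-9253.34049 is the longest of the rises, at 12303 bases. It had 3.82, 2.01, 3.73 and 5.54 FPKM in UM, against 0.36, 0.04, 0.02 and 0.32 FPKM in Ck. Because of its length these levels rest on 458 to 1262 estimated fragments per UM library and on 4 to 86 per Ck library. The cluster was listed at 0 in every UL library and at 0.01 FPKM or less in UH, so UM was the 1 group in which all libraries reached 1 FPKM. Its log2 change was 1.97 ± 0.20 against Ck (adjusted p = 0.00101), 2.20 against UL (adjusted p = 0.000677) and 2.20 against UH (adjusted p = 0.000122). The call against Ck held with any library left out and was lost in the fit of the 8 libraries alone (adjusted p = 0.0639). Between UM and Ck, this cluster passed the 1 FPKM threshold through UM alone.

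Cluster-9253.73811 (1772 bases) and Cluster-9253.2196 (803 bases) had the same outline. The first had 2.21, 5.24, 2.03 and 2.56 FPKM in UM, against 0.07, 0.51, 0.23 and 0.17 FPKM in Ck (log2 change 1.63 ± 0.21, adjusted p = 0.00516). The second had 1.45, 3.9, 1.9 and 2.17 FPKM in UM, against 0.11 FPKM in Ck replicate 3 and 0 in the other Ck libraries (log2 change 1.66 ± 0.19, adjusted p = 0.00219). Both were low in the other groups too, with at most 0.38 FPKM in any UH library and at most 0.1 FPKM in any UL library. Both calls held with any library left out and were lost in the fit of the 8 libraries alone (adjusted p = 0.0975 and 0.067). That of Cluster-9253.2196 was also lost with a pseudocount of 0.1 (adjusted p = 0.077). Between UM and Ck, both clusters passed the 1 FPKM threshold through UM alone.

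Cluster-9253.99472 (517 bases) was listed at 0 in all 12 libraries outside UM. In UM it had 3.46, 1.66, 4.08 and 1.91 FPKM, which is 8 to 17 estimated fragments (adjusted p = 0.00101). This call too held with any library left out and was lost in the fit of the 8 libraries alone (adjusted p = 0.0639). The cluster passed the 1 FPKM threshold through UM alone, so its place among the clusters tested already required a difference. Cluster-9253.69009 (618 bases) had 3.87, 10.53, 2.4 and 5.89 FPKM in UM, against 0.29, 1.1, 0.64 and 0 FPKM in Ck (log2 change 2.05 ± 0.32, adjusted p = 0.0204). UM also exceeded UH in it (log2 change 2.54, adjusted p = 0.00105) and UL (2.36, adjusted p = 0.0115). Its call against Ck was lost without UM replicate 1, UM replicate 4 or Ck replicate 3 (highest adjusted p of these 0.0709). That call was also lost with a pseudocount of 0.1 (adjusted p = 0.159). So it was in the fit of the 8 libraries alone (0.158) and in limma voom on estimated fragments (0.164).

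Other rises rest on few fragments. Cluster-9253.17447 (325 bases), the largest at a log2 change of 3.45 ± 0.59 (adjusted p = 0.0348), had 12.73, 20.56, 29.97 and 11.16 FPKM in UM, which is 12 to 31 estimated fragments. In Ck it had 6.75 FPKM in replicate 1 and was listed at 0 in replicates 2, 3 and 4, and its call was lost when any UM library, Ck replicate 3 or Ck replicate 4 was left out (highest adjusted p 0.127). Cluster-9253.21669 (347 bases) had 6.25, 3.18, 13.15 and 7.78 FPKM in UM, or 5 to 18 fragments, against 0.64, 0, 0 and 0 FPKM in Ck (log2 change 2.79 ± 0.41, adjusted p = 0.0127); the call was lost without UM replicate 1 or Ck replicate 3 (highest adjusted p 0.0527). It was also present in all UH and UL libraries, at 0.84 to 4.77 and 1.45 to 6.33 FPKM. Cluster-9253.85105 (383 bases), likewise present in all UH and UL libraries, had 4.24, 3.9, 5.65 and 2.28 FPKM in UM, against 0, 0, 0 and 0.83 FPKM in Ck (log2 change 2.06 ± 0.35, adjusted p = 0.0334). The call on this last cluster was lost without UM replicates 1, 2 or 3 or Ck replicates 1 or 3 (highest adjusted p 0.121).

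A further 3 named rises were short and listed at 0 in all Ck libraries. Between UM and Ck, they passed the 1 FPKM threshold through UM alone. Cluster-9253.57523 (373 bases) had 1.75, 2.36, 1.68 and 2.49 FPKM in UM, or 3 to 5 fragments (adjusted p = 0.00763). Cluster-9253.99534 (413 bases) had 4.95, 1.74, 2.87 and 1.45 FPKM in UM, or 4 to 12 fragments (adjusted p = 0.027). Cluster-9253.83276 (333 bases) had 4.71, 1.43, 6.94 and 1.54 FPKM in UM, or 2 to 8 fragments (adjusted p = 0.0419). The first of these calls held with any library left out, while the second was lost without UM replicates 1 or 3 or Ck replicates 1 or 3 and the third without UM replicates 1 or 3 or Ck replicates 1, 3 or 4 (highest adjusted p 0.098 and 0.161). Among all 22 rises, 11 had at least 10 estimated fragments in every UM library, and 7 were listed at 0 in every Ck library.

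Rises were measured against the other groups as well. Of the 22, 16 were also higher in UM than in UL and 13 were higher in UM than in UH at an adjusted p under 0.05; 11 passed both and 4 passed neither. Over all 30009 clusters the background of these tests, in either direction, was 4.41% called between UM and UL and 3.81% between UM and UH. Of the clusters so called, 1066 and 1087 were higher in UM. These tests share the UM libraries with the comparison that chose the rises, so they are not separate evidence that UM was high.

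**Figure D2:**
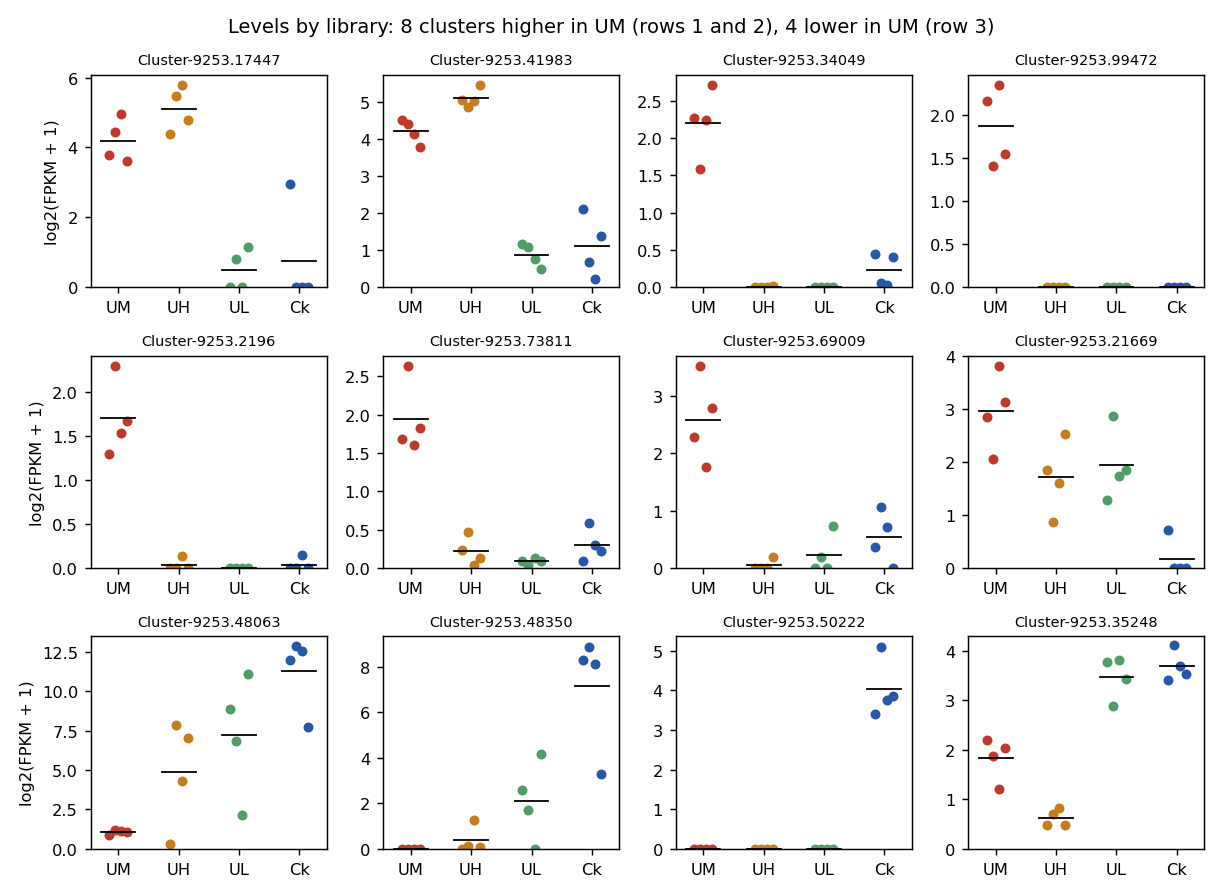
Points are libraries and bars are group means of log2(FPKM + 1), in the order UM, UH, UL and Ck, for 8 rises (upper panels) and 4 falls (bottom row). Cluster-9253.34049, Cluster-9253.99472, Cluster-9253.2196, Cluster-9253.73811 and Cluster-9253.69009 are high in UM alone, Cluster-9253.41983 and Cluster-9253.17447 are high in UM and UH, and Cluster-9253.50222 is above 0 in Ck alone.

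The largest falls formed a set that moved together over the Ck libraries. Cluster-9253.48063 (514 bases) had 0.88, 1.26, 1.22 and 1.07 FPKM in UM, against 3944.32, 7324.7, 5927.61 and 207.82 FPKM in Ck. Its log2 change of -10.18 ± 1.83 was the largest of all calls, with an adjusted p of 0.0453. Cluster-9253.47739 (840 bases) had 1.07, 2.37, 1.15 and 2.03 FPKM in UM, against 3829.24, 6249.06, 4567.99 and 175.61 FPKM in Ck (log2 change -9.66 ± 1.75, adjusted p = 0.0457). Cluster-9253.48843 had 0.32, 1.06, 0.73 and 0.7 FPKM in UM, against 1702.38, 3065.05, 2349.84 and 93.03 FPKM in Ck (log2 change -9.27 ± 1.68, adjusted p = 0.0457). All 3 were highest in Ck replicate 2 and lowest in Ck replicate 4, with every UM library at or below 2.37 FPKM. In UL they spread widely, from 3.4 to 2203.62 FPKM for Cluster-9253.48063, and in UH from 0.22 to 231.98 FPKM.

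Further clusters, at lower levels, were likewise highest in Ck replicate 2 and lowest in Ck replicate 4, while the order of the other Ck libraries varied. Cluster-9253.48374 (844 bases) had 0.19, 1.09, 1.46 and 1.1 FPKM in UM, against 509.76, 643.9, 279.5 and 11.15 FPKM in Ck (log2 change -6.60 ± 1.08, adjusted p = 0.027). Cluster-9253.48350 (1842 bases) was listed at 0 in every UM library and had 311.46, 469.81, 278.89 and 8.63 FPKM in Ck (adjusted p = 0.012). Cluster-9253.48321 (2671 bases) had 0.05, 0.13, 0.15 and 0 FPKM in UM, against 165.23, 362.95, 278.81 and 14.96 FPKM in Ck (log2 change -6.89 ± 1.25, adjusted p = 0.0457). Again Ck replicate 4 was the lowest Ck library in each. Cluster-9253.48776 (1514 bases) had 0.04 to 0.17 FPKM in UM, against 115.91, 128.1, 31.47 and 1.51 FPKM in Ck (log2 change -4.94 ± 0.87, adjusted p = 0.0397). Cluster-9253.49713 (994 bases) had at most 0.07 FPKM in UM, against 28.29, 55.72, 45.48 and 3.08 FPKM in Ck (log2 change -4.52 ± 0.78, adjusted p = 0.0371). In UH and UL these 5 clusters were not alike. Cluster-9253.48776 had 0 to 0.54 FPKM in UH and 0.29 to 0.54 FPKM in UL, near its level in UM, while Cluster-9253.48321 had 0.07 to 21.35 FPKM in UH and 0.32 to 102.27 FPKM in UL. Cluster-9253.48374 reached 3.4 FPKM in UH and 16.55 FPKM in UL, Cluster-9253.48350 reached 1.4 and 16.88 FPKM, and Cluster-9253.49713 reached 1.32 and 10.65 FPKM.

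These 8 falls are not taken as independent of each other. For 7 of them, all but Cluster-9253.48350, the call was lost without any 1 UM library and without Ck replicate 1 or Ck replicate 3, with a highest adjusted p of 0.119 to 0.16. The call on Cluster-9253.48350 was lost without UM replicate 1 (adjusted p = 0.0527). Without Ck replicate 4, the lowest of the Ck libraries, all 8 calls held, as they did without Ck replicate 2, the highest. All 8 were lost with a replicate block and in limma voom on estimated fragments (adjusted p 0.284 to 0.388 in limma voom). Under a stricter filter, a mean of at least 5 FPKM, only the call on Cluster-9253.48350 held. In the fit of the 8 libraries alone, Cluster-9253.48063, Cluster-9253.47739 and Cluster-9253.48843 stayed called (adjusted p 0.0456 to 0.0483). The other calls were lost in that fit. None of the 8 differed between UM and UH or between UM and UL at an adjusted p under 0.05 (lowest 0.151 and 0.0552).

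The same outline ran through clusters that were not called. Of the 81 clusters with a log2 change of -4 or below, 73 had no overlap between UM and Ck and 9 were called. The shares over all clusters were 6.62% and 0.157%, and a choice by size of change favours both. The 81 had a median standard error of 1.54 and a median adjusted p of 0.209. In 75 of the 81, Ck replicate 4 was the lowest Ck library, as it was in 9.25% of all clusters. In 64 of them Ck replicate 2 was the highest, as it was in 34.3% of all clusters. The median over the 81 clusters was 0.1, 0.15, 0.15 and 0.12 FPKM in the UM libraries, 0.38, 8.39, 1.4 and 39.5 FPKM in UH, 42.2, 15.1, 0.69 and 309 FPKM in UL, and 136, 250, 121 and 6.82 FPKM in Ck. UM was thus low in every library, whereas UH, UL and Ck each held both low and high libraries. The set was chosen by the size of its difference between UM and Ck, so that difference is a description.

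Cluster-9253.49425 (502 bases) and Cluster-9253.46880 (329 bases) belong to this set. Both were listed at 0 in every UM library. The first had 417.45, 574.81, 270.05 and 13.78 FPKM in Ck (log2 change -7.46 ± 1.72, adjusted p = 0.147), and the second had 225.54, 525.45, 242.36 and 11.26 FPKM in Ck (log2 change -7.10 ± 1.72, adjusted p = 0.172). UM fell below UL in both, where they had 2.12 to 1407.94 and 2.86 to 1382.85 FPKM (adjusted p = 0.0478 and 0.0499). Both clusters were named for being at 0 in UM, so these tests are not separate evidence that UM was low.

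Only 2 clusters had a log2 change of 4 or more, and neither was called. Cluster-9253.84883, of 1498 bases, was at 8.62, 11.91, 29.48 and 1159.7 FPKM in UM, against 0.04, 0.04, 0 and 0.26 FPKM in Ck (log2 change 5.41 ± 1.26, adjusted p = 0.148). Cluster-9253.5026 (384 bases) had 92.35, 28.8, 117.75 and 2.26 FPKM in UM, against 0, 1.24, 0 and 0 FPKM in Ck (log2 change 4.72 ± 1.19, adjusted p = 0.188). In both the UM libraries differed from each other by a wide margin, and the lowest of them still lay above every Ck library. These 2 were named after their values were seen.

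A further 3 named falls were smaller and had at most 0.97 FPKM in any UM, UH or UL library. They passed the 1 FPKM threshold through Ck alone, so their place among the clusters tested already required a difference. Neither their p-values nor the settings they held under are separate support for it. Cluster-9253.50222, the longest fall at 11556 bases, was listed at 0 in every UM, UH and UL library and had 9.54, 33.32, 12.59 and 13.37 FPKM in Ck, which is 2129 to 7864 estimated fragments. Its adjusted p was 6.33e-06, and it was called under all 18 alternative settings (adjusted p 1.18e-08 to 0.0232). Cluster-9253.22097, of 317 bases, was at 0, 0, 0 and 0.97 FPKM in UM, against 3.92, 7.16, 2 and 2.47 FPKM in Ck (adjusted p = 0.0127), and was listed at 0 in UH and UL. These Ck values are 2 to 8 estimated fragments, and the call was lost without UM replicate 1 (adjusted p = 0.0591). Cluster-9253.69950 (622 bases) was listed at 0 in UM and had 2.88, 19.56, 4.45 and 1.74 FPKM in Ck (adjusted p = 0.0343). Its call was lost without any 1 UM library or Ck replicate 3 (highest adjusted p 0.121). This call and that of Cluster-9253.22097 were also lost in the fit of the 8 libraries alone and in limma voom on estimated fragments.

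Cluster-9253.35248 (541 bases) separated UM from every other group. It had 3.56, 2.65, 1.32 and 3.09 FPKM in UM, against 9.54, 16.18, 11.93 and 10.59 FPKM in Ck (log2 change -1.86 ± 0.24, adjusted p = 0.00486). UM lay below UL (6.42 to 12.95 FPKM; log2 change -1.64, adjusted p = 0.0136) and above UH (0.39 to 0.76 FPKM; log2 change 1.21, adjusted p = 0.0137). The call against Ck held with any library left out and was lost in the fit of the 8 libraries alone (adjusted p = 0.0651).

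Moderate falls were found in 3 clusters that are named here after their values were seen, because they held under at least 16 of the 18 alternative settings. Cluster-9253.30216 (968 bases) had 3.79, 4.71, 3.94 and 3.39 FPKM in UM, against 12.32, 24.66, 12.82 and 19.46 FPKM in Ck (log2 change -1.84 ± 0.22, adjusted p = 0.00294). Cluster-9253.53858 (1147 bases) averaged 0.878 ± 0.108 FPKM in UM and 4.25 ± 0.989 FPKM in Ck (SD, n = 4 each; log2 change -1.47 ± 0.17, adjusted p = 0.00236 in limma). Cluster-9253.39500 (3307 bases) averaged 0.74 ± 0.102 FPKM in UM and 4.01 ± 0.659 FPKM in Ck (SD, n = 4 each; log2 change -1.52 ± 0.20, adjusted p = 0.00615 in limma). In none of the 3 did UM differ from UL or UH at an adjusted p under 0.05 (lowest 0.586 and 0.275). Cluster-9253.30216 had 3 to 3.66 FPKM in UL and 1.93 to 4.64 FPKM in UH. The ranges were 0.87 to 1.38 and 0.53 to 1.64 FPKM for Cluster-9253.53858, and 0.81 to 1.51 and 0.41 to 1.95 FPKM for Cluster-9253.39500. In all 3, every UM, UH and UL library lay below every Ck library, so these differences from Ck are not particular to UM.

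Of the 25 falls, 3 were also lower in UM than in UL and 0 were lower in UM than in UH at an adjusted p under 0.05, and 22 passed neither test. Over all 30009 clusters, 256 were called lower in UM than in UL and 56 lower in UM than in UH. A cluster at 0 in UM, UH and UL, such as Cluster-9253.50222, cannot pass these tests, and a difference that misses the threshold does not show that the levels were alike. The falls had a median log2 change of -1.84 in UM, -2.26 in UH and -1.80 in UL, each relative to Ck. The rises had medians of 1.62 in UM, 0.00 in UH and 0.02 in UL. These comparisons share the Ck libraries, and the values of UM chose the clusters. Among the falls, 21 had at least 10 estimated fragments in every Ck library.

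On the same 30009 clusters, limma called 4037 between UH and Ck (13.5%), 5 between UL and Ck (0.0167%), 1322 between UM and UL (1066 higher and 256 lower in UM) and 1143 between UM and UH (1087 higher and 56 lower in UM), beside the 47 between UM and Ck. The comparisons with Ck share the Ck libraries. The median log2 change over these clusters was 0.06 in UM, -0.17 in UH and 0.10 in UL, each relative to Ck.

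By abundance, the middle of the change stayed close to the overall median. Classes were formed by the mean FPKM over the 8 libraries. The median log2 change was 0.05 in the 8459 clusters under 2 FPKM, 0.05 in the 9656 from 2 to 5 FPKM, 0.07 in the 5298 from 5 to 10 FPKM, 0.07 in the 5821 from 10 to 100 FPKM, 0.06 in the 679 from 100 to 1000 FPKM, and 0.13 in the 96 of 1000 FPKM and over. What differed was the width. The quartiles were -0.14 and 0.25 under 2 FPKM, and -0.17 and 0.84 at 1000 FPKM and over. The median standard error also differed, at 0.20 from 5 to 10 FPKM and 0.59 at 1000 FPKM and over, so the most abundant clusters varied most between replicates. The median of the highest class ran from -0.03 without UM replicate 4 to 0.32 without UM replicate 3.

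Rises sat among clusters with a low mean over the 8 libraries, and falls were spread over all classes. That mean takes in both groups, so a cluster near 0 in 1 group is placed below its level in the other. Of the 22 rises, 14 were under 2 FPKM, 5 were from 2 to 5 FPKM, 2 from 5 to 10 FPKM and 1 from 10 to 100 FPKM. The class under 2 FPKM holds 28.2% of the clusters tested. Rises made up 0.166% of that class and 0.0172% of the class from 10 to 100 FPKM. Of the 25 falls, 7 were under 2 FPKM, 7 from 2 to 5, 2 from 5 to 10, 3 from 10 to 100, 4 from 100 to 1000 and 2 at 1000 FPKM and over. As a share of their class the falls went from 0.0378% between 5 and 10 FPKM to 2.08% at 1000 FPKM and over, where 2 of 96 clusters were called and both belong to the co-moving set described above. Under a pseudocount of 1 the change of a scarce cluster is understated.

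Among the 10 most abundant clusters, 0 were called. Cluster-9253.47764 (703 bases), the most abundant in all 8 libraries, had 78166.09, 117192.75, 121868.49 and 105295 FPKM in UM, against 57879.21, 46862.25, 52046.29 and 52793.99 FPKM in Ck. All 4 UM values lay above all Ck values, with a log2 change of 0.99 ± 0.33 that did not pass over all clusters (adjusted p = 0.302). It took 10.5, 14.3, 14.7 and 12.5% of the FPKM sum in UM and 7.35, 6.66, 7.12 and 7.18% in Ck (exact permutation p = 0.0286, adjusted over the 5 measures 0.143). Cluster-9253.51649 (377 bases) behaved likewise, with 7115.04, 15826.07, 18151.75 and 10081.02 FPKM in UM, against 4161.51, 2653.06, 2986.37 and 2329.49 FPKM in Ck (log2 change 2.02 ± 0.70, adjusted p = 0.306).

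A pair of abundant clusters switched between libraries of the same group. Cluster-9253.45104 (1482 bases) had 13371.53, 24415.68, 67.64 and 1335.63 FPKM in UM, against 38.83, 9612.4, 19403.55 and 20485.46 FPKM in Ck (log2 change -0.59 ± 2.43, adjusted p = 0.95). Cluster-9253.45355 (883 bases) had 5833.03, 9243.65, 29.64 and 551.65 FPKM in UM, against 20.72, 4297.53, 9728.41 and 9566.55 FPKM in Ck (log2 change -0.81 ± 2.38, adjusted p = 0.923). UM replicate 3 and Ck replicate 1 were the low libraries of both, and the groups overlapped over their whole range.

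The other 6 of the 10 were steady. Cluster-9253.47660, Cluster-9253.48231, Cluster-9253.82085, Cluster-9253.47864, Cluster-9253.48582 and Cluster-9253.48799 had log2 changes between -0.23 and 0.28 with standard errors of 0.20 to 0.30, and their lowest adjusted p was 0.615. Cluster-9253.82085 (1883 bases) averaged 6802 ± 483 FPKM in UM and 5677 ± 1108 FPKM in Ck (SD, n = 4 each), with overlapping values. The 10 clusters together took 20.6, 26.3, 21 and 20.1% of the FPKM sum in UM and 12.5, 17.1, 18.1 and 17.3% in Ck.

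**Figure D3:**
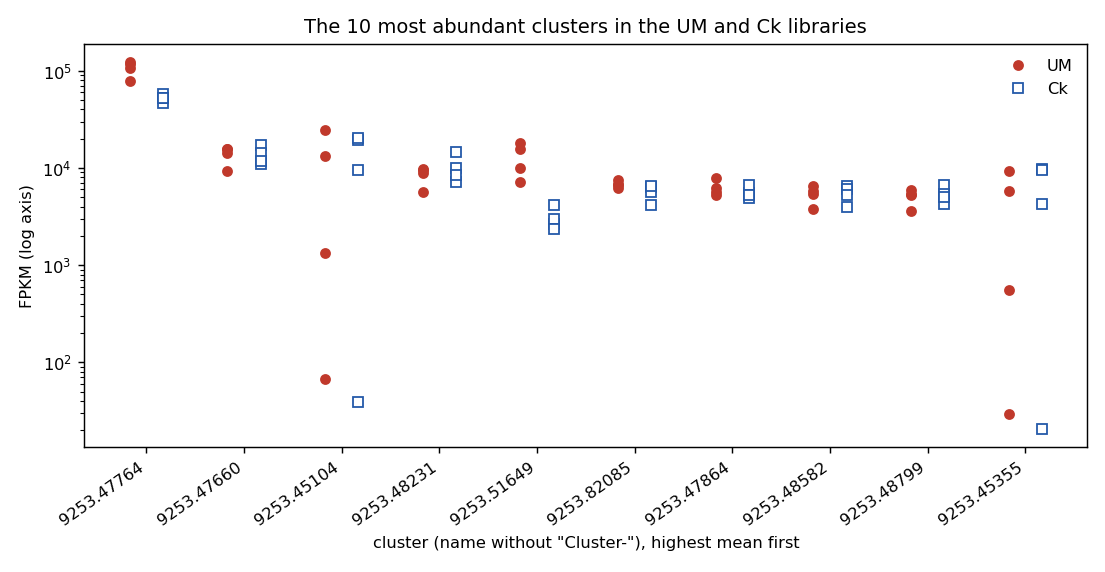
FPKM on a log axis in the UM (filled circles) and Ck libraries (open squares) for the 10 most abundant clusters, ordered by their mean over the 8 libraries. Cluster-9253.47764 and Cluster-9253.51649 are higher in every UM library than in any Ck library, and Cluster-9253.45104 and Cluster-9253.45355 have low libraries in both groups.

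By length, the change was widest in short clusters and shifted least upward in long ones. The median log2 change was 0.04 in the 5352 clusters of up to 500 bases, 0.06 in the 5970 of over 500 to 1000 bases, 0.09 in the 7509 of over 1000 to 2000 bases, 0.05 in the 8791 of over 2000 to 5000 bases and 0.01 in the 2387 over 5000 bases. The share with a change above 0 was 53.0%, 58.4%, 64.1%, 59.9% and 50.8% in the same order. The quartiles narrowed with length, at -0.30 and 0.36 for up to 500 bases and at -0.13 and 0.15 over 5000 bases. So did the median standard error, which was 0.40 in the shortest and 0.15 in the longest class. A shorter cluster collects fewer fragments at a given FPKM.

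Many rises were short, with 11 of 22 at up to 500 bases, where the class makes up 17.8% of the clusters tested. Of the falls 4 of 25 were of that length and 10 were of over 500 to 1000 bases. The median length was 493 bases among rises, 986 among falls and 1438 among all clusters tested. Of the 11 short rises, 10 had a mean under 10 FPKM, as did 4537 of all 5352 clusters of that length.

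Clusters over 5000 bases stood out by their direction. Values of UM and Ck did not overlap in 1986 clusters (6.62%), of which 1165 (3.88%) were higher and 821 (2.74%) lower in UM. In the class over 5000 bases the counts were 57 higher and 118 lower in UM, or 2.39% and 4.94%. In that of over 1000 to 2000 bases they were 365 higher and 156 lower, or 4.86% and 2.08%. With any 1 of the 8 libraries left out, more clusters over 5000 bases stayed lower than higher in UM, from 93 higher and 252 lower without Ck replicate 1 to 102 higher and 138 lower without Ck replicate 4. The classes share the same 8 libraries, and the difference between them was not tested. The median deviation of these long clusters from their mean over the 8 libraries was 0.03, 0.01, -0.05 and -0.02 in UM and -0.12, 0.11, -0.06 and 0.09 in Ck, so the Ck libraries differed more from each other than the groups did. In the class of over 2000 to 5000 bases the majority turned without Ck replicate 3, with 389 higher and 457 lower, against 323 higher and 270 lower with all libraries.

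**Figure D4:**
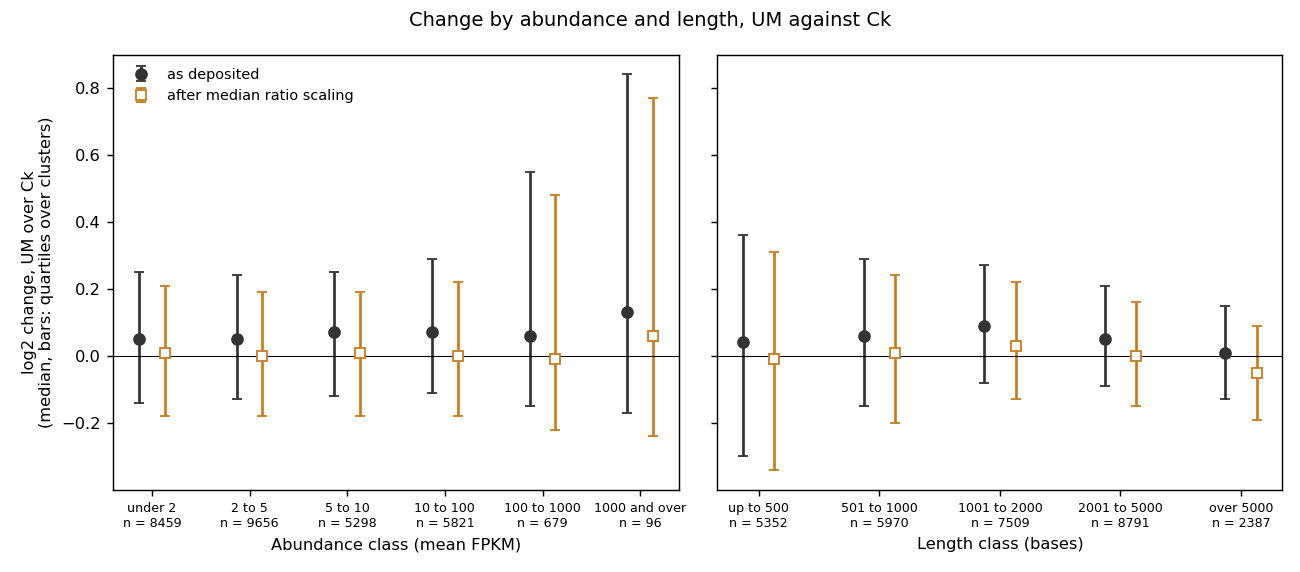
Median log2 change (UM over Ck) with quartiles over the clusters of each class, as deposited (filled circles) and after median ratio scaling (open squares), by mean FPKM on the left and by length on the right. The quartiles widen to -0.17 and 0.84 in the most abundant class and narrow to -0.13 and 0.15 in the longest, and scaling moves every median down.

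Median ratio scaling, which sets the libraries to a common middle of the clusters found in all 16 libraries, moved the median log2 change to 0.005, against 0.059 as deposited. It left 50.7% of the clusters above 0, against 58.7% as deposited. The scaling factors were 1.10, 1.10, 1.02 and 1.08 in UM and 0.945, 1.09, 0.977 and 1.09 in Ck. After scaling 51 clusters were called (0.170%), of which 20 were higher (0.0666%) and 31 lower in UM (0.103%), and 45 of the 47 calls as deposited were among them. The calls therefore changed little, with a share of falls of 53.2% as deposited and 60.8% scaled.

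The balance of the broader measures turned with the scaling. Among clusters with an unadjusted p under 0.05, 41.5% were lower in UM as deposited (1458 of 3515) and 55.9% after scaling (2096, beside 1654 higher). Clusters without overlap were lower in UM in 41.3% as deposited (821, beside 1165 higher) and in 58.6% after scaling, when 1247 (4.16%) were lower and 882 (2.94%) higher. Quantile normalization went the other way, with 35.1% lower. No direction of the overall difference between UM and Ck is therefore given.

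By class, scaling took the medians to between -0.01 and 0.06 over abundance and to between -0.05 and 0.03 over length. The longest class kept its place as the lowest, at -0.05 with 39.4% above 0. Its clusters without overlap were 38 higher and 218 lower in UM after scaling. Within it, the 600 clusters of 10 FPKM and over had a median of -0.02 as deposited and -0.09 scaled, and the 1787 under 10 FPKM had 0.01 and -0.04.

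Single calls near the threshold moved with the scaling. Cluster-9253.88505 (681 bases) had 8.69, 9.32, 7.54 and 14.32 FPKM in UM, against 2.59, 1.16, 3.27 and 3.74 FPKM in Ck; it was called as deposited (log2 change 1.60 ± 0.28, adjusted p = 0.0419) and not after scaling (1.52, adjusted p = 0.0629). Cluster-9253.31492 (1149 bases) had 6.55, 5.3, 6.19 and 5.57 FPKM in UM, against 4.14, 2.5, 2.18 and 1.95 FPKM in Ck; its adjusted p was 0.0284 as deposited and 0.0901 after scaling. Both calls were also lost without any 1 UM library and without Ck replicate 3 (highest adjusted p 0.121 in each), the first also without Ck replicate 1 and the second also without Ck replicate 4. The fit of the 8 libraries alone and limma voom on estimated fragments lost both calls as well. In neither did the values of UM and Ck overlap.

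Of the clusters called after scaling alone, 3 were named by the same rule, all lower in UM. Cluster-9253.49845 (2487 bases) had 2.01, 3.58, 2.19 and 3.85 FPKM in UM, against 9.88, 24.29, 12.51 and 6.25 FPKM in Ck (adjusted p = 0.0481 scaled and 0.0813 as deposited). Cluster-9253.53728 (4461 bases) had 3.49, 2.63, 2.89 and 3.9 FPKM in UM, against 15.07, 17.04, 11.87 and 5.21 FPKM in Ck (adjusted p = 0.0441 scaled and 0.0593 as deposited). Cluster-9253.19601 (764 bases) had 0.11, 1.37, 0.48 and 0.75 FPKM in UM, against 1.95, 2.61, 3.3 and 3.64 FPKM in Ck (adjusted p = 0.0495 scaled and 0.0891 as deposited). In each, all UM libraries lay below all Ck libraries.

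The first number in a cluster's name gave no further division of the calls. The same first number was borne by 29876 of the clusters tested (99.6%), by 75% of the whole table and by all 47 calls.

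At the lower limit of the selection, 2684 clusters reached 1 FPKM in exactly 4 of the 8 libraries and 3369 fell outside with exactly 3, while 20265 reached it in all 8. Of the clusters left out, 72968 reached 1 FPKM in none of the 8 libraries, of which 5141 were listed at 0 throughout.

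**Figure D5:**
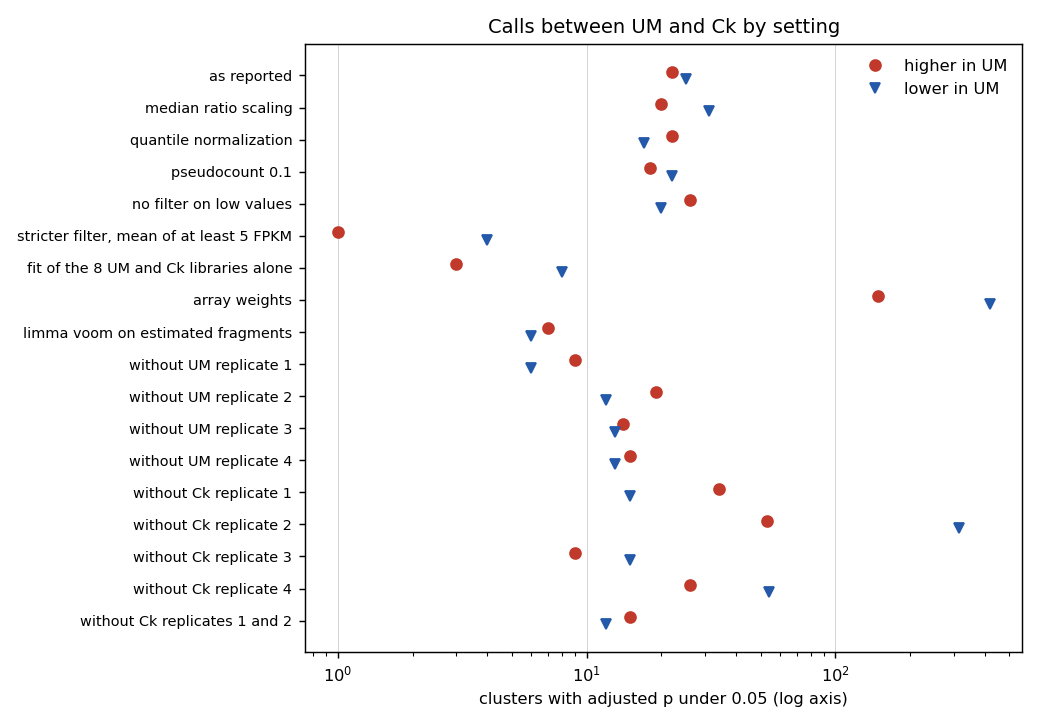
Number of clusters with an adjusted p under 0.05 between UM and Ck, higher (red circles) and lower in UM (blue triangles), on a log axis, for the reported fit and 17 other settings. The counts lie between 1 and 53 for rises and between 4 and 313 for falls, except with array weights, which call 148 and 417.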

How the data were processed

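The authors deposited 1 table of FPKM values, rounded to 2 decimals, for 16 libraries in 4 groups of 4, with a length per cluster; the unit is per the file headers. Poly-A RNA was fragmented and copied with random primers, per the labels' protocols. Information on the assembler, aligner and counter is not given in the sources used here. A mouse build, mm10, stands in the submitters' processing notes and does not match the organism. Depth was estimated by a search for the depth and fragment length that made low values whole multiples of 1 fragment: 97.3 to 98.4% of the values worth about 1 to 10 fragments came out whole within 0.1. The mean fragment length found was 257 to 294 bases. It is an estimate, so a count model is an alternative only.

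The test ran on log2(FPKM + 1) for all clusters that reached 1 FPKM in 4 or more of the 8 libraries of UM and Ck, with limma 3.58.1 under R 4.3.3 and its trend option. All 16 libraries shared 1 estimate of the spread (12 residual degrees of freedom); since Ck spread more than UM, a fit of the 8 libraries alone was an alternative. Tests were two-sided with Benjamini-Hochberg adjustment over all 30009 clusters, and every adjusted p of a cluster is from limma. Library measures were compared with exact permutation tests. The fit was tested on simulated data. No gene lists could be matched to clusters. The members, classes and named clusters were chosen with earlier results of these data known. The text names the 12 largest calls in each direction, the 10 most abundant clusters, up to 4 in each direction listed at 0 in 1 group, up to 3 in each direction called under 1 scaling alone, and the longest call in each direction. Alternatives were 2 normalizations, a pseudocount of 0.1, 2 filters, the fit of 8 libraries, array weights, a replicate block, limma voom on estimated fragments and each library left out; the fit without Ck replicates 1 and 2 was chosen after seeing the data.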

Additional observations from a re-analysis of the deposited data

Results flagged for a closer look

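A single library stood apart from the other 3 of its group in 8 of the 83 groups of 4 values examined. Chance gives about 1 in 20 where values vary freely; in 5 of the 8 the other 3 values were listed at 0, so that any value above 0 stands apart, and the count is not set against that rate. In Ck these were the values of 6.75 FPKM in replicate 1 for Cluster-9253.17447, 0.64 FPKM in replicate 1 for Cluster-9253.21669, 0.83 FPKM in replicate 4 for Cluster-9253.85105 and 0.11 FPKM in replicate 3 for Cluster-9253.2196. Each of them was the 1 Ck library above 0. Replicate 2 of Ck stood apart in Cluster-9253.50222, at 33.32 FPKM, and in Cluster-9253.69950, at 19.56 FPKM. In UM, replicate 2 stood apart in Cluster-9253.73811, at 5.24 FPKM, and replicate 4 in Cluster-9253.22097, at 0.97 FPKM with the other 3 at 0.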

How the results depend on the processing

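The count of 47 calls was 51 with median ratio scaling, 39 with quantile normalization, 40 with a pseudocount of 0.1 and 46 with no filter. It was 5 with the stricter filter (11895 clusters tested), 11 in the fit of these 8 libraries on their own, 13 with limma voom on estimated fragments, 565 with array weights and 27 without Ck replicates 1 and 2; with 1 library left out it ran from 15 to 366. Replicate numbers are shared by the groups in the labels. The deviations of same-numbered UM and Ck libraries had correlations of -0.21, 0.31, 0.02 and -0.09 for numbers 1 to 4. Those of differently numbered libraries ran from -0.44 to 0.52. So few values cannot settle whether the numbers pair the libraries. The fit with a replicate block called 15. The 1986 clusters without overlap became 4598 with no filter, 807 with the stricter filter and 6422 without Ck replicates 1 and 2, and 2694 to 3837 with 1 library left out, where fewer values make a lack of overlap more frequent. The median log2 change of 0.06 was -0.01 with no filter and 0.03 to 0.09 with 1 library left out. Apart from the effects built into fewer clusters or libraries, the cause of these shifts was not tested. Among named clusters and class medians, 691 of 909 recomputed values kept their direction and side of the threshold or stayed within the replicate spread. The 909 take in class medians and clusters not called as deposited, which cannot lose a call. The 691 are therefore not a share of calls kept. A call was lost in 197 and gained in 15. The other 6 were class medians that moved by more than that spread, all under median ratio scaling. Of these, the median from 100 to 1000 FPKM went from 0.06 to -0.01. Quantile normalization sets Cluster-9253.47764 to 0.00 by construction, as the most abundant cluster of each library. Changes in clusters worth under about 10 fragments are limited by depth.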
